A study of Neotoma stephensi and Rattus norvegicus with 6 samples.

Results

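The genes that encode the constitutive proteasome were examined in the foregut of 2 rodents, the woodrat *Neotoma stephensi* and the lab rat *Rattus norvegicus* of the Sprague Dawley stock. Members were the gene symbols that start with Psma, Psmb, Psmc, Psmd, Psme, Psmf or Psmg and a digit, without the interferon-inducible Psmb8, Psmb9, Psmb10, Psme1 and Psme2. This name rule took 43 of the 15481 genes in the count files. Of these 43 genes, 41 encode constitutive subunits, assembly chaperones, activators or an inhibitor of the proteasome, and the counts below refer to those 41 unless stated otherwise. The other 2 carry a matching name only. Psmc3ip encodes a cofactor of homologous recombination, and Psme2b is a copy of the inducible Psme2, which the authors had taken out of their transcript set as a paralog. Reads of Psme2 can therefore have been counted under Psme2b. The rule would also take the testis subunit Psma8 and the thymus subunit Psmb11, but neither was among the 15481 genes.

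The proteasome is the large protease that degrades proteins tagged with ubiquitin. Its core particle (20S) is a barrel of alpha rings, which form the gate, and beta rings, of which the subunits encoded by Psmb5, Psmb6 and Psmb7 cut peptide bonds. The regulatory particle (19S) has a base, with a ring of ATPases that unfold substrates, and a lid, which removes the ubiquitin chain. Nearly every cell needs the complex, and its genes are usually expressed together.

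RNA came from the fornix ventricularis, the nonglandular part of the stomach with a keratinized squamous epithelium, of 3 females of each species. The woodrats were caught in the wild and fed juniper foliage, and the lab rats were purchased and kept on standard chow. The labels call every animal a virgin, although this was not known for the wild-caught woodrats, and no ages are given. Species, diet, housing and the sequence distance of each species from the mouse transcripts used for alignment cannot be told apart in this comparison.

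Each animal had between 5439642 and 7932637 counted reads, and 12603 genes that reached 1 CPM (counts scaled to a common library size) in 3 or more animals were tested. All 43 genes passed this filter. CPM values were normalized with the TMM method, which scales libraries so that most genes do not differ, and 3 counts corresponded to between 0.355 and 0.586 CPM. Log2 fold changes are woodrat over lab rat, with their standard errors (SE), and genes at a false discovery rate (FDR) below 0.01 were called.

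The 8 squamous epithelium markers had reads in every animal, with summed levels of 13706 to 35759 CPM in woodrats and 10545 to 15615 CPM in lab rats, and 1 of 8 (Krt4) was called, as higher in woodrats. Most of these sums came from Krt4 and Krt13. Log2 fold changes were positive for Krt4, Krt13, Krt14 and Dsc3 and negative for Krt5, Trp63, Dsg3 and Pkp1. Among woodrats 1, 2 and 3, Trp63 was at 3.32, 11.4 and 100.6 CPM and Pkp1 at 26.6, 115 and 598 CPM. Smooth muscle markers summed to 35263 to 111414 CPM in woodrats and 9412 to 16771 CPM in lab rats, with 3 of 7 called as higher in woodrats. Cell cycle markers were at 21.2 to 85.5 CPM in woodrats and 130.4 to 229 CPM in lab rats, with 2 of 5 called as lower in woodrats. Leukocyte markers summed to 7.62 to 22.1 CPM in woodrats and 33.1 to 69.0 CPM in lab rats. Of the 4 tested, 3 were called as lower in woodrats, and Ptprc, Itgam and Cd3e were below 1 CPM in every woodrat. The other tested marker, Cd68, was at 3.71, 16.7 and 11.4 CPM in woodrats and 13.0, 11.1 and 9.82 CPM in lab rats (FDR = 0.899). Cd79a, not tested, was at 0.977, 1.53 and 0.355 CPM in woodrats and 0.248, 0 and 0 CPM in lab rats. The fibroblast and endothelial markers, at 358 to 1049.6 CPM and 636 to 941 CPM, had FDR values from 0.281 to 0.688. Skeletal muscle markers were at 142 to 332 CPM in woodrats and 22.1 to 49.3 CPM in lab rats, nearly all of it from Ckm, which was called as higher in woodrats. The other 5 detected skeletal muscle markers were at most 1.30 CPM in any woodrat, and Myh4 and Tnnt3, the only ones of them tested, had log2 fold changes of -3.13 (FDR = 0.0147) and -2.06 (FDR = 0.0321). Glandular stomach markers were at 7.63 to 9.77 CPM and 6.74 to 9.76 CPM, with Muc5ac called as higher in woodrats, and Pgc, Muc6, Tff2 and Gkn1 were at or near 0. The part of these differences in tissue make-up in the proteasome values was not tested, and fewer cells of a type and less RNA per cell cannot be told apart in whole tissue.

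In woodrats, 3 of the 41 constitutive proteasome genes were less abundant than in lab rats and 0 were more abundant. The called genes were Psmd14, Psmd5 and Psmg1. Among all genes tested, 9.71% were called as lower and 10.3% as higher in woodrats. The share of proteasome genes called as lower, 7.32%, was thus close to that of all genes. At an unadjusted p below 0.05, 9 proteasome genes were lower in woodrats (23.7% of all genes were) and 1, Psme4, was higher (26.0% of all genes). At an FDR below 0.05 the counts were 7 lower (18.9% of all genes) and 0 higher (21.0%), and DESeq2 called 6 as lower (15.3%) and 0 as higher (15.8%).

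The log2 fold changes of the 41 genes were mostly small and mostly negative. Their median was -0.38, against 0.03 for all genes tested, and their quartiles were -0.64 and -0.15, against -0.76 and 0.89 for all genes. The log2 fold change was negative in 36 of the 41 genes, against 49.0% of all genes. In 24 genes every woodrat lay below every lab rat, against 27.4% of all genes, and in 1 gene every woodrat lay above, against 28.8%.

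**Figure D1:**
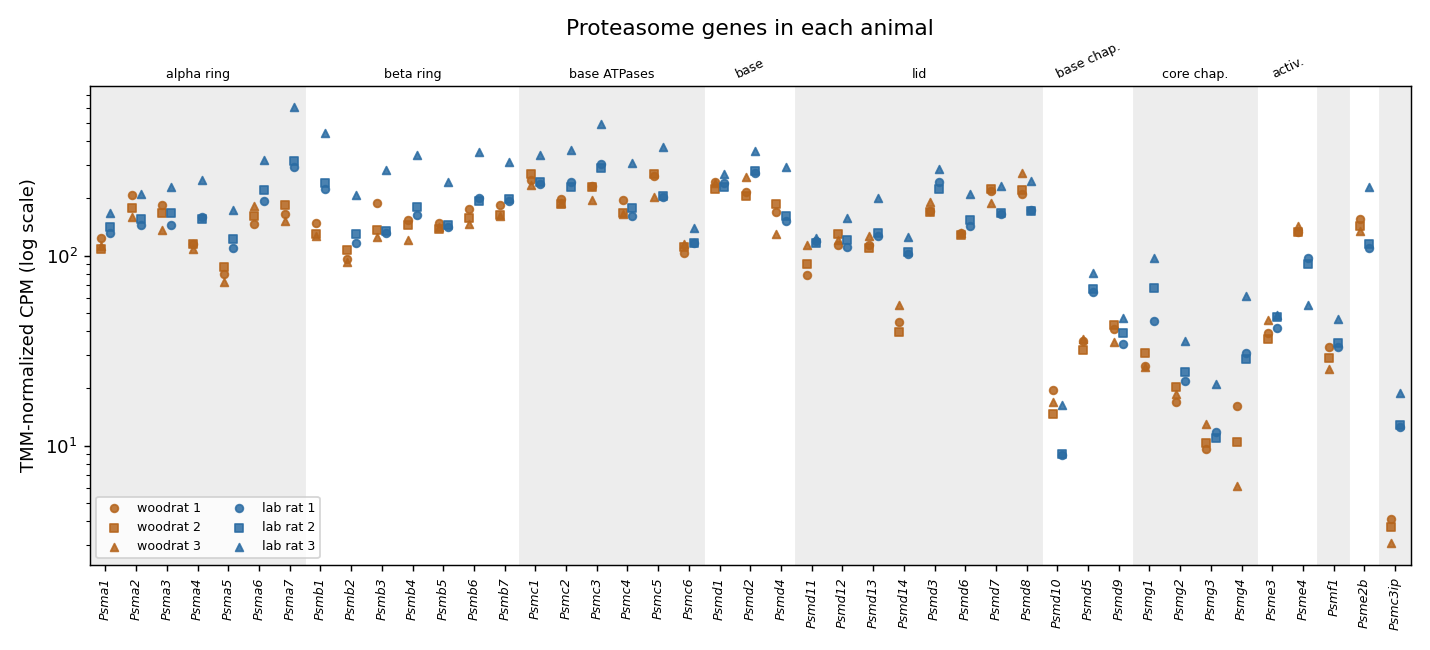
TMM-normalized CPM (log axis) of the 43 genes in each of the 3 woodrats (brown) and 3 lab rats (blue), ordered by role, with Psmf1 (inhibitor), Psme2b and Psmc3ip at the right. Lab rat 3 (blue triangles) was the highest animal for 38 of the 41 constitutive genes, and the woodrats lay close together for most genes.

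A single library bore on most of these values. Lab rat 3 had the highest level of the 6 animals for 38 of the 41 genes, against 26.5% of all genes tested. Of the 8266 genes with a mean of at least 10 CPM, as all 41 had, it was the highest in 2609. Its level was a median of 1.51 times the mean of lab rats 1 and 2. The median was 0.944 times for all genes tested and 1.02 times for genes with a mean of at least 10 CPM. For the single genes this ratio ran from 0.587 for Psme4 to 2.11 for Psmb3. The ratio was above 1 in 40 genes. Without lab rat 3 the median log2 fold change was -0.21, 27 of the 41 genes had a negative value, and 0 were called, while 5.27% of all genes were still called as lower. The sign changed in 9 genes, namely Psma3, Psmb3, Psmc1, Psmc4, Psmc5, Psmd1, Psmd4, Psmd9 and Psmd12. In 24 genes every woodrat remained below lab rats 1 and 2 (32.8% of all genes) and in 5 every woodrat was above them (33.7%).

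**Figure D2:**
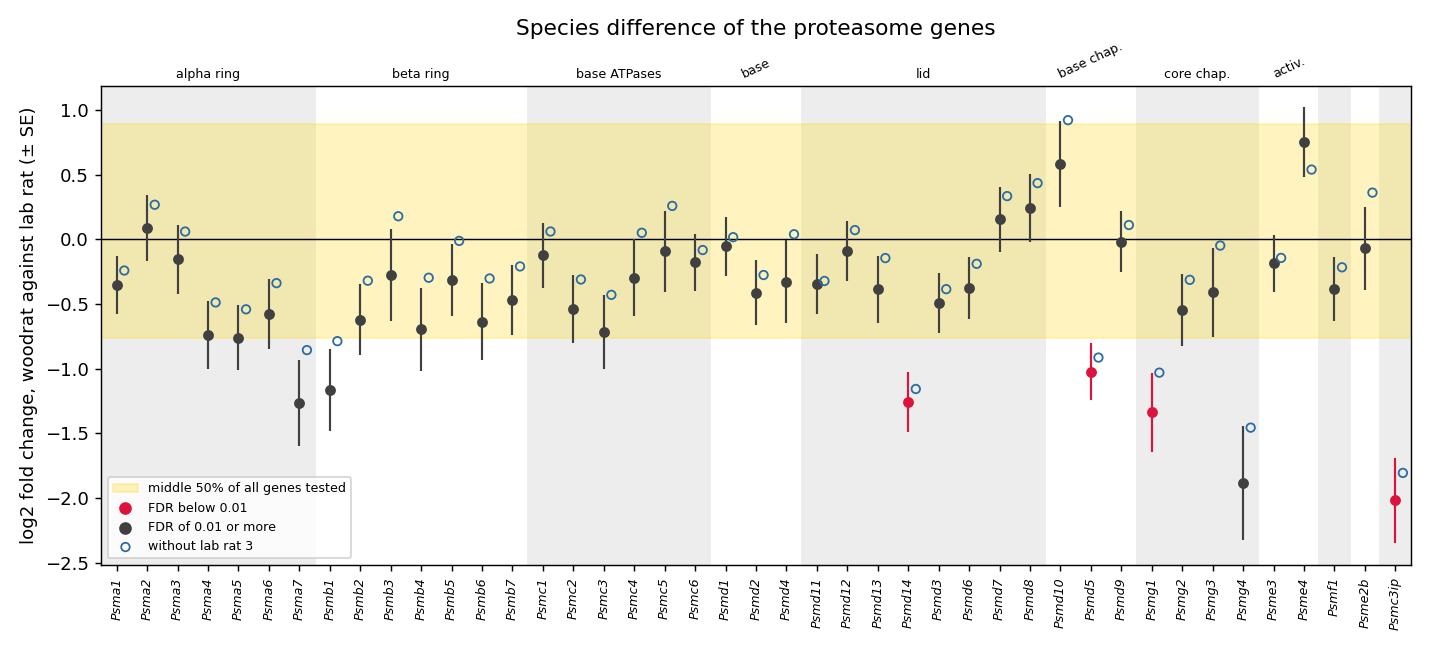
Log2 fold change (woodrat against lab rat, ± SE) of the 43 genes, in red where the FDR was below 0.01, with the value without lab rat 3 as an open circle and the middle 50% of all genes tested as a yellow band. Most genes lay in the lower part of the band, Psmd14, Psmd5, Psmg1 and Psmc3ip were called, and leaving out lab rat 3 moved every constitutive gene but Psme4 upward.

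Among woodrats the proteasome genes varied little. The highest woodrat was a median of 1.19 times the lowest for these 41 genes, against 1.65 times for all genes tested and 1.53 times for genes with a mean of at least 10 CPM, which all 41 had. This was not particular to the proteasome. Of the gene lists described below, the CCT chaperonin was at 1.17 times and p97 with its cofactors at 1.21 times, and the other lists ran from 1.28 to 2.09 times. In lab rats the same ratio was 1.59 for the proteasome genes, 1.65 for all genes and 1.56 for genes with a mean of at least 10 CPM. Relative to the other 2 animals of its species, the median proteasome gene was at 0.06, -0.04 and -0.08 on the log2 scale in woodrats 1, 2 and 3. In lab rats 1, 2 and 3 it was at -0.37, -0.24 and 0.59, while the median of all genes stayed between -0.07 and 0.00.

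**Figure D3:**
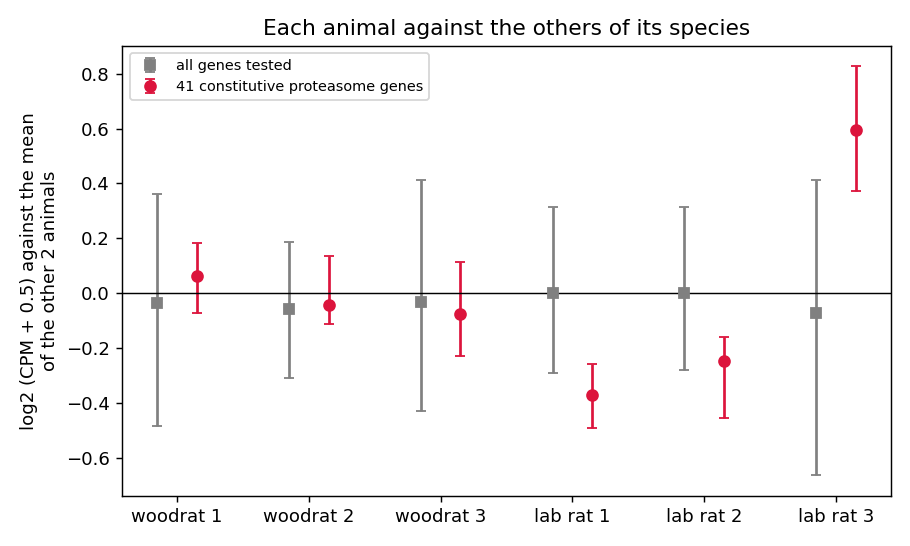
Log2 of CPM + 0.5 in each animal against the mean of the other 2 animals of its species, as the median and middle 50% of the 41 constitutive proteasome genes (red) and of all genes tested (grey). The proteasome genes of the woodrats lay near 0, while those of lab rat 3 lay at a median of 0.59.

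The summed level of the regulatory particle was nearly equal in the 3 woodrats, although the sum of its lid genes was highest in woodrat 3 and that of its base ATPase genes highest in woodrat 1. Summed over the 17 subunit genes of base and lid, woodrats 1, 2 and 3 had 2952, 2965 and 2934 CPM. Lab rats 1, 2 and 3 had 3115, 3121 and 4514 CPM. The 14 genes of the core particle summed to 2121, 1977 and 1837 CPM in woodrats and to 2347, 2502 and 4125 CPM in lab rats. Every woodrat was below every lab rat for both sums. In the same woodrats the summed smooth muscle markers differed 3.16-fold between the highest and the lowest animal and the squamous epithelium markers 2.61-fold. The squamous sum was mostly Krt4 and Krt13. Within a library the reads of both particles can also be set against each other. For every 100 reads of the core particle, woodrats 1, 2 and 3 had 139, 150 and 160 reads of the regulatory particle, and lab rats 1, 2 and 3 had 133, 125 and 109. The species did not overlap in this ratio, and no test was made on it.

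**Figure D4:**
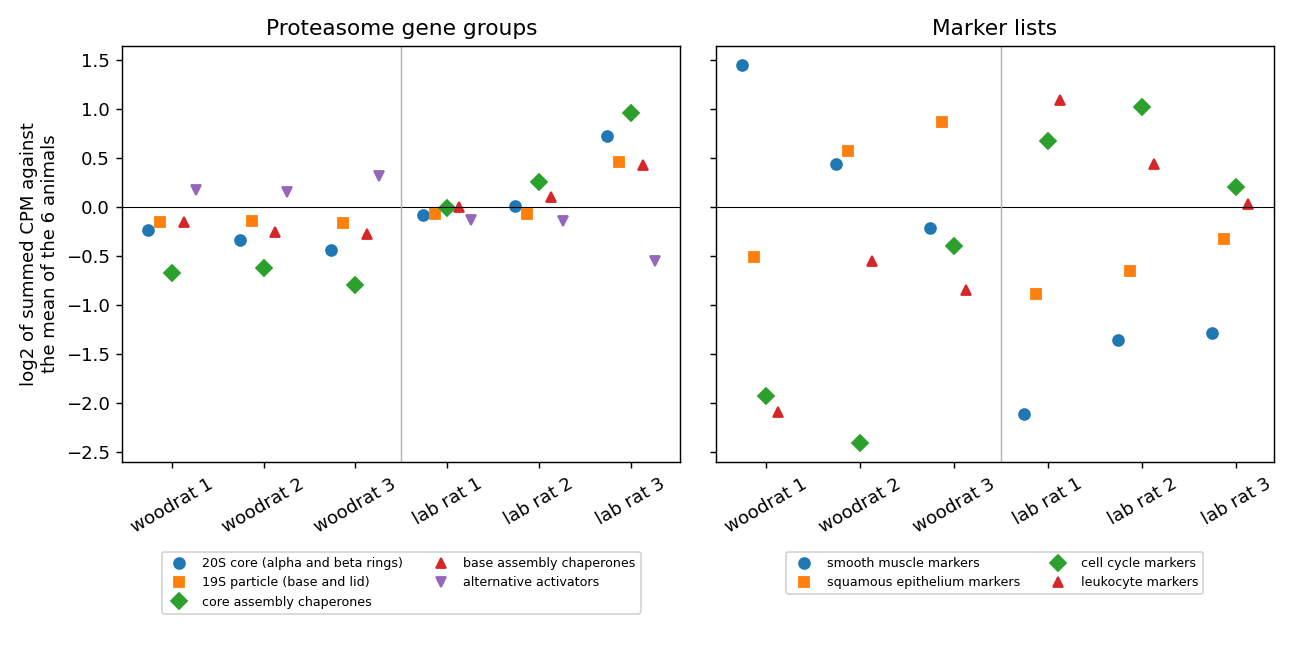
Summed CPM of gene groups in each animal, as log2 against the mean of the 6 animals, for proteasome gene groups (left) and for marker lists of cell types and the cell cycle (right). The proteasome groups were nearly level across the 3 woodrats, while each of the 4 marker lists spread more widely among the same animals.

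Of the 7 alpha ring genes, 0 were called, with 3 lower in woodrats at an unadjusted p below 0.05 and 1 called by DESeq2. Their log2 fold changes ran from -1.26 for Psma7 to 0.09 for Psma2. Psma7 was at 166, 184 and 152 CPM in woodrats 1, 2 and 3 and at 294, 313 and 602 CPM in lab rats 1, 2 and 3. Every woodrat was below every lab rat, and lab rat 3 stood far above the others. The log2 fold change of -1.26 (SE 0.33, FDR = 0.0178) did not pass the threshold, and without lab rat 3 it was -0.86 (FDR = 0.0199). Psma2, at the other end, had 207, 177 and 160 CPM in woodrats and 145, 156 and 210.3 CPM in lab rats, and the species overlapped (FDR = 0.803).

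The 7 beta ring genes had negative log2 fold changes throughout, from -1.16 for Psmb1 to -0.27 for Psmb3, and 0 were called, with 1 lower at an unadjusted p below 0.05 and 1 called by DESeq2. In both cases this was Psmb1, a structural subunit of the ring. It had 148, 130 and 127 CPM in woodrats and 223, 242 and 442 CPM in lab rats, without overlap (log2 fold change -1.16, SE 0.32, FDR = 0.0200). Psmb3 had 190.0, 137 and 125 CPM in woodrats and 131, 135 and 281 CPM in lab rats, so that lab rats 1 and 2 lay among the woodrats. Its log2 value was -0.27 with all animals and 0.18 without lab rat 3.

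None of the 3 proteolytic subunits was called. Psmb5, the chymotrypsin-like subunit, had 148, 138 and 141 CPM in woodrats and 141, 145 and 244 CPM in lab rats. Lab rats 1 and 2 were within the range of the woodrats, and the log2 fold change was -0.31 (SE 0.28, FDR = 0.392), or -0.01 without lab rat 3. Psmb6, the caspase-like subunit, had 176, 157 and 147 CPM in woodrats and 200.05, 194 and 352 CPM in lab rats. Psmb7, the trypsin-like subunit, had 184, 164 and 161 CPM in woodrats and 194, 197 and 311 CPM in lab rats. For both, every woodrat was below every lab rat, but the differences did not pass the test, with log2 fold changes of -0.64 (SE 0.30, FDR = 0.119) and -0.47 (SE 0.27, FDR = 0.198).

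The constitutive proteolytic subunits are replaced by Psmb8, Psmb9 and Psmb10 in the immunoproteasome. For every 100 reads of Psmb5, woodrats 1, 2 and 3 had 2.65, 3.94 and 2.02 reads of Psmb8, and lab rats 1, 2 and 3 had 8.46, 9.22 and 9.57. For every 100 reads of Psmb6 there were 2.44, 2.12 and 0.888 reads of Psmb9 in woodrats and 5.52, 4.26 and 5.64 in lab rats. Both ratios were lower in every woodrat than in every lab rat, by 1.72 and 1.62 on the log2 scale (log2 differences of -1.72 and -1.62). The third ratio, Psmb10 to Psmb7, was 13.6, 10.9 and 6.86 in woodrats and 9.51, 10.1 and 11.4 in lab rats, and the species overlapped. In a two-sided exact permutation test of the log2 ratios the p was 0.1 for Psmb8, 0.1 for Psmb9 and 0.9 for Psmb10. After Benjamini-Hochberg adjustment over the 3 pairs these were 0.15, 0.15 and 0.9, and 0.1 is the smallest p that 3 animals against 3 allow. The ratios were added after the values were seen, so these p-values only describe the data. The woodrat ratios rested on few reads, with 20, 39 and 24 of Psmb8 and 22, 24 and 11 of Psmb9 in woodrats 1, 2 and 3. Lab rat 3 was the highest lab rat in each of the 3 ratios, by a small margin for Psmb8 and Psmb9. Without it the log2 difference for Psmb10 went from -0.03 to 0.04. Leukocyte markers were also lower in woodrats, but within each species their order was not that of the Psmb8 or Psmb9 ratio. The part of leukocytes in these ratios was not tested.

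**Figure D5:**
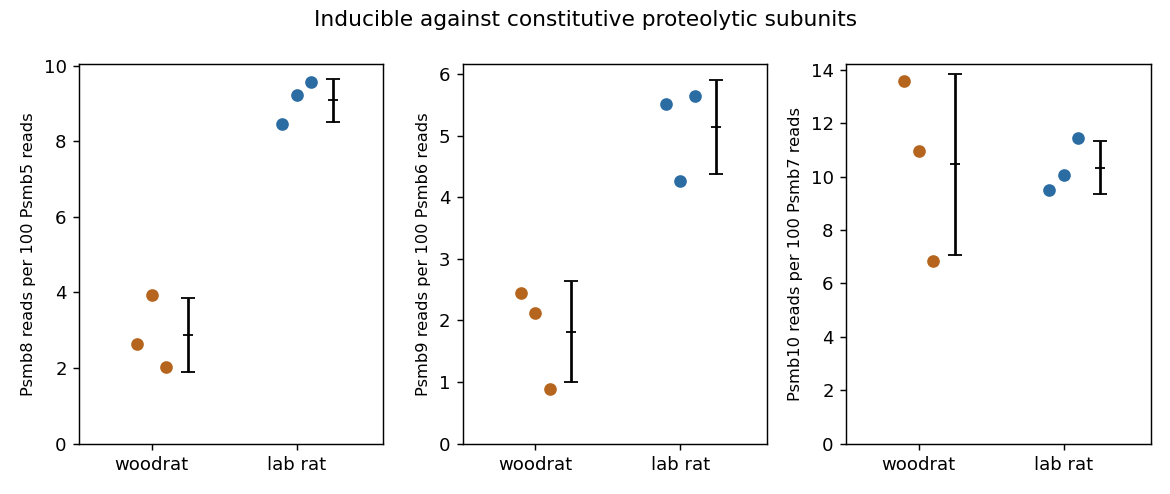
Reads of each inducible proteolytic subunit per 100 reads of its constitutive counterpart, for each of the 3 woodrats and 3 lab rats, with the mean and SD as a bar. The ratios of Psmb8 to Psmb5 and of Psmb9 to Psmb6 were lower in all 3 woodrats than in all 3 lab rats, and the ratio of Psmb10 to Psmb7 overlapped.

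The 6 base ATPase genes had log2 fold changes between -0.72 (Psmc3) and -0.09 (Psmc5), and 0 were called, with 1 lower at an unadjusted p below 0.05 and 0 by DESeq2. Psmc3 had 232, 230.4 and 195 CPM in woodrats and 302, 289 and 490.4 CPM in lab rats, with all woodrats below all lab rats (FDR = 0.0794). Psmc5 had 262, 269 and 202 CPM in woodrats and 203, 206 and 373 CPM in lab rats, where lab rats 1 and 2 were near the lowest woodrat (FDR = 0.838).

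The base scaffold genes Psmd1 and Psmd2 and the ubiquitin receptor gene Psmd4 had FDR values of 0.217 or more, with 0 at an unadjusted p below 0.05 and 0 called by DESeq2. Psmd1 was among the most even genes, at 245, 225 and 242 CPM in woodrats and 240.4, 228 and 270 CPM in lab rats (log2 fold change -0.05, SE 0.23). Psmd2 had 216, 207 and 258 CPM in woodrats and 271, 279 and 357 CPM in lab rats (log2 fold change -0.41, SE 0.25, FDR = 0.217).

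In the lid, 1 of 8 genes was called. Psmd14 (ENSMUSG00000026914.14) encodes the metalloprotease that cuts the ubiquitin chain off the substrate at the entry of the complex. It had 44.5, 39.4 and 54.8 CPM in woodrats 1, 2 and 3, or 46.3 ± 7.9 CPM (SD, n = 3). Lab rats 1, 2 and 3 were at 103, 104 and 126 CPM, with a mean of 111 ± 13 (SD, n = 3). The lowest lab rat was well above the highest woodrat. Woodrats had 2.39-fold less (log2 fold change -1.26, SE 0.24, FDR = 0.00447). Lab rat 3 was only 1.22 times the mean of the other lab rats here, and without it the log2 fold change was -1.16 (FDR = 0.0110). Of the 6 fits that each left out 1 animal, only that without woodrat 3 kept the call, and the values ran from -1.40 to -1.16. The other 7 lid genes had log2 fold changes between -0.49 (Psmd3) and 0.24 (Psmd8). Psmd8 had 210, 221 and 272 CPM in woodrats and 175, 172 and 248 CPM in lab rats, with overlap between the species (FDR = 0.482).

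The base assembly chaperones bind the ATPases and release them when the base is complete. Of these, Psmd5 (ENSMUSG00000026869.11) was called. The woodrats were at 35.7, 31.8 and 36.6 CPM, with a mean of 34.7 ± 2.6 (SD, n = 3), and the lab rats at 64.0, 66.8 and 81.1 CPM, with a mean of 70.6 ± 9.1 (SD, n = 3). The groups were far apart, and the gene was 2.03-fold lower in woodrats (log2 fold change -1.02, SE 0.22, FDR = 0.00793). Leaving out any animal ended the call, with values from -1.09 to -0.91 and the latter without lab rat 3 (FDR = 0.0130). Psmd9 was level, with a log2 fold change of -0.02 (SE 0.23). Psmd10, which encodes gankyrin, had 19.7, 14.7 and 16.9 CPM in woodrats and 8.94, 9.10 and 16.4 CPM in lab rats. Only lab rat 3 lay among the woodrats, and the log2 fold change was 0.58 (SE 0.33, FDR = 0.191), or 0.92 (FDR = 0.0327) without that animal.

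The core assembly chaperones, Psmg1 to Psmg4, guide the formation of the alpha ring, and their median log2 fold change was -0.94. Psmg1 (ENSMUSG00000022913.13) was called. Levels were 26.4, 30.7 and 26.1 CPM in woodrats (mean 27.7 ± 2.6, SD, n = 3) and 45.5, 67.8 and 97.3 CPM in lab rats (mean 70.2 ± 25.9, SD, n = 3). The lab rats were widely spread but all lay above the woodrats. Woodrats had 2.53-fold less, just inside the threshold (log2 fold change -1.34, SE 0.31, FDR = 0.00988), and the value without lab rat 3 was -1.03 (FDR = 0.0209). Only the fit without lab rat 1 kept the call among those that left out 1 animal, and DESeq2 size factors (FDR = 0.0101) and a filter at 5 CPM (FDR = 0.0107) ended it. Psmg4 was just outside it, with a log2 fold change of -1.89 (SE 0.44, FDR = 0.0110), and it was called with total counts only (FDR = 0.0081), with no filter (FDR = 0.0085), by DESeq2 (FDR = 0.00039) and without woodrat 1 (FDR = 0.0082). It had 16.2, 10.4 and 6.16 CPM in woodrats and 30.8, 28.6 and 61.1 CPM in lab rats, without overlap. Psmg3 had 9.57, 10.3 and 13.0 CPM in woodrats and 11.8, 10.9 and 21.2 CPM in lab rats (FDR = 0.370). In sum, the 4 chaperone genes had 69.1, 71.8 and 63.8 CPM in woodrats and 110.1, 132 and 215 CPM in lab rats.

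Psme4, which encodes the activator PA200 that caps the core particle without need for ubiquitin, was the only gene of the 41 with all woodrats above all lab rats. It had 133, 133 and 144 CPM in woodrats and 97.4, 90.1 and 55.1 CPM in lab rats. Here lab rat 3 was the lowest animal. The log2 fold change of 0.75 (SE 0.27, FDR = 0.0527) did not pass the threshold. Psme3, which encodes the nuclear activator PA28 gamma, had 39.1, 36.5 and 45.6 CPM in woodrats and 41.8, 47.5 and 48.5 CPM in lab rats (FDR = 0.527). The inhibitor gene Psmf1 had 33.0, 29.0 and 25.3 CPM in woodrats and 33.0, 34.6 and 46.2 CPM in lab rats. The highest woodrat and the lowest lab rat were nearly equal for Psmf1, and its log2 fold change was -0.38 (SE 0.25, FDR = 0.248).

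Of the 2 genes with a matching name only, Psmc3ip was called. It had 4.10, 3.75 and 3.08 CPM in woodrats and 12.5, 12.9 and 18.9 CPM in lab rats, without overlap. Woodrats had 4.05-fold less (log2 fold change -2.02, SE 0.33, FDR = 0.0027), and the value without lab rat 3 was -1.81 (FDR = 0.0077). The call was lost without woodrat 2, lab rat 1 or lab rat 2, with FDR values up to 0.0137. Cell cycle markers were also lower in woodrats. Their sums were 29.7, 21.2 and 85.5 CPM in woodrats 1, 2 and 3 and 181, 229 and 130 CPM in lab rats 1, 2 and 3. The part of the cell cycle in the Psmc3ip values was not tested. Psme2b had 156, 143 and 135 CPM in woodrats and 109, 116 and 230.2 CPM in lab rats, with lab rats on both sides of the woodrats (FDR = 0.879).

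Among other genes of the pathway, 4 of the 57 tested on 7 lists were called, 1 as higher and 3 as lower in woodrats. These shares, 1.75% and 5.26%, were below the 10.3% and 9.71% of all genes tested. The higher gene was Nfe2l1, which encodes NRF1, a transcription factor known to raise the expression of proteasome subunit genes when proteasome activity is short. It had 406, 344 and 301 CPM in woodrats 1, 2 and 3 and 136, 159 and 112 CPM in lab rats 1, 2 and 3. The groups were far apart, and the gene was 2.58-fold higher in woodrats (log2 fold change 1.37, SE 0.26, FDR = 0.00481). The smooth muscle markers summed to 111414, 55345 and 35263 CPM in woodrats 1, 2 and 3. In lab rats 1, 2 and 3 they summed to 9412, 15934 and 16771 CPM. The part of smooth muscle in the Nfe2l1 values was not tested. On the same list, which holds 7 genes around NRF1, Nfe2l2 had a log2 fold change of -1.32 (FDR = 0.0167) and Sel1l one of 1.95 (FDR = 0.01004), neither past the threshold.

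Of the 4 immunoproteasome genes tested, 1 was called. Psmb8 had 3.91, 5.41 and 2.84 CPM in woodrats and 11.9, 13.4 and 23.3 CPM in lab rats (log2 fold change -1.99, SE 0.40, FDR = 0.00595). Psmb9 had a log2 fold change of -2.15 (FDR = 0.0125), and Psme1 and Psmb10 had -0.82 and -0.46 (FDR = 0.0689 and 0.373).

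The COP9 signalosome, which is built like the lid and takes NEDD8 off ubiquitin ligases, had 2 of 9 genes called as lower in woodrats. Of all genes tested, 9.71% were called as lower. These 2 genes encode versions of its subunit 7. Cops7a had 23.4, 25.5 and 37.4 CPM in woodrats and 66.6, 72.0 and 69.9 CPM in lab rats (log2 fold change -1.27, SE 0.25, FDR = 0.00575). Cops7b had 9.96, 7.63 and 6.28 CPM in woodrats and 20.4, 18.5 and 24.1 CPM in lab rats (log2 fold change -1.40, SE 0.30, FDR = 0.00729). In neither gene did the species overlap (27.4% of all genes had every woodrat below every lab rat). Cops8 went the other way, with every woodrat above every lab rat (28.8% of all genes). It had 77.7, 52.5 and 44.1 CPM in woodrats and 28.3, 33.1 and 40.1 CPM in lab rats (log2 fold change 0.78, SE 0.28, FDR = 0.0563). Of the 4 called genes on the lists, Nfe2l1 and Cops7a stayed called only without woodrat 3, Cops7b only without woodrat 1 and Psmb8 in none of these leave-one-out fits, with the direction kept in each. The median of the COP9 list was -0.05.

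Subunits and partners of the proteasome outside the name rule, such as Adrm1, Pomp and Usp14, had 0 of 17 genes called, with 5 higher and 3 lower at an unadjusted p below 0.05 and 1 called by DESeq2. Their median log2 fold change was -0.16. Of all genes tested, 26.0% were higher and 23.7% lower at an unadjusted p below 0.05, and DESeq2 called 15.8% as higher and 15.3% as lower. The segregase p97 and its cofactors had 0 of 9 called, with 0 at an unadjusted p below 0.05 and 0 by DESeq2, and a median of -0.23. Ubiquitin and its activating enzymes had 0 of 4 called, with 1 lower at an unadjusted p below 0.05 and 0 by DESeq2, and a median of -0.30. Ubb and Rps27a on this list both encode ubiquitin, so their reads may have been divided between them. The CCT chaperonin, another ring complex found in nearly every cell, had 0 of 7 called, with 3 lower at an unadjusted p below 0.05 and 1 by DESeq2. Its median log2 fold change was -0.53, and lab rat 3 was the highest of the 6 animals for all 7 of its genes.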

How the data were processed

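Stranded mRNA libraries of 3 woodrats and 3 lab rats were compared, with species and replicate number taken from the sample labels. The authors trimmed the read pairs with Trimmomatic, merged them with FLASH, and used cross_match for alignment to the coding transcripts of mouse in GENCODE M7 (the submitters' processing notes name the build mm9). They left out transcripts of mouse genes prone to multiple alignments and deposited raw counts, not normalized, of reads assigned to a single gene. Tool versions are not given in the sources used here. No animals of a species had identical libraries (chi-square over its degrees of freedom 9.01 to 101.51). Nothing in the files gives coordinates or gene lengths, so levels were compared between animals and not between genes.

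The 12603 genes that reached 1 CPM in 3 or more animals were fitted with edgeR 4.0.16 under R 4.3.3 (TMM factors of 0.836 to 1.113, the quasi-likelihood F-test used before edgeR 4, species as the only term, prior count 0.125, Benjamini-Hochberg adjustment over these genes). A gene was called at an FDR below 0.01. The SE of a log2 fold change is its absolute value over the root of F. On simulated counts, 177 of 200 changed genes were recovered with 1 false call. The simulation used a common dispersion, and its changes were larger than any log2 fold change of the constitutive proteasome genes. Recovery of changes as small as theirs was not tested. DESeq2 1.42.0, other normalizations, filters and thresholds, the replicate number as a block, and leaving out each animal were tried. The files hold 809 genes without lab rat reads and 0 without woodrat reads, so genes read only in lab rats may be missing. The p-values weigh the species difference against the spread between these animals. SE and SD values include that spread, while the floors of 3 counts cover counting error only.

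The members and gene lists were chosen with earlier results of these data known. Values are given for called genes, the proteolytic subunits, the highest and lowest member of each role group by log2 fold change, and called genes of the lists. The ratios of inducible to constitutive subunits, and the names Psmg1 to Psmg4 as a group sum, Psmb9, Psmb10, Psme1, Nfe2l2, Sel1l, and the genes whose sign changed, were added after the values were seen.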

Additional observations from a re-analysis of the deposited data

How the results depend on the processing

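Of the 41 constitutive proteasome genes, 3 were called as lower in woodrats. This count was 6 with total counts only, 6 with DESeq2, 7 at an FDR below 0.05 and 0 with the replicate number as a block, and between 0 and 1 in the fits that each left out 1 animal. No proteasome gene was called as higher in woodrats in any of these fits. The count of all genes called went from 2516 to 716 with the replicate block, 3916 with DESeq2, 5026 at an FDR below 0.05 and 898 to 2626 with 1 animal left out. The 4 genes called on the pathway lists became 2 with total counts only, 0 with the replicate block, 9 with DESeq2, 15 at an FDR below 0.05 and 0 to 2 with 1 animal left out. The median log2 fold change of the proteasome genes was -0.38 and stayed negative in every fit, between -0.48 and -0.21 with 1 animal left out, the latter without lab rat 3.

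The replicate numbers did not pair the animals. The correlations between same-numbered animals, as deviations from the species mean, were -0.29, -0.09 and -0.28. Psmd14, Psmd5 and Psmg1 kept negative log2 fold changes when 1 animal was left out, and were called in 1, 0 and 1 of these 6 fits. With 1 animal left out, values of genes that were not called changed sign in some fit, namely Psma2 (-0.017 to 0.27), Psmb3 (-0.48 to 0.18), Psmc5 (-0.24 to 0.26), Psmd1 (-0.10 to 0.017), Psma3 (-0.29 to 0.060), Psmc1 (-0.22 to 0.061), Psmc4 (-0.47 to 0.051), Psmd4 (-0.50 to 0.040), Psmd9 (-0.13 to 0.11), Psmd12 (-0.19 to 0.072) and Psme2b (-0.26 to 0.36), as did the log2 ratio difference of Psmb10 to Psmb7 (-0.25 to 0.24). The cause was not tested, though these fits have fewer animals.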
